A study of Mus musculus with 13 samples.

Results

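Imprinted genes that sit inside an intron of another gene were followed through DNA methylation in mouse cells during and after reprogramming. There were 5 such genes, chosen by position: Mcts2 within H13, Nnat within Blcap, Nap1l5 within Herc3, Zrsr1 within Commd1, and the second variant of Inpp5f, which starts within Inpp5f itself. Their intervals in the mm9 build were chr2:152510000-152516000 for Mcts2, chr2:157380000-157392000 for Nnat, chr6:58854000-58860000 for Nap1l5, chr11:22865000-22880000 for Zrsr1 and chr7:135825000-135840000 for Inpp5f variant 2. These 54 kb held 361 of the 3338357 CpGs read on autosomes and X in at least 1 library. Reads were summed in 1 kb tiles, and a methylation level is the percent of the reads of a tile that were methylated. Reads fell in 22 tiles of the intervals, and 12 of these had the depth to enter the tests, among 96551 tiles of the genome.

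Methylation had been read by reduced representation bisulfite sequencing (RRBS), in which a restriction enzyme releases CpG-rich fragments and bisulfite separates methylated from unmethylated cytosine. The 13 libraries were 2 of male mouse embryonic fibroblasts (MEF 4 and 5), 2 of male reprogramming intermediates, 1 without and 1 with the surface antigen SSEA1, which appears as cells approach pluripotency, and 9 of induced pluripotent stem cells (iPSCs), freed of feeder cells. Of the iPSC libraries, 3 were male (1, 2 and 4), 4 were female and labelled XO (3, 5, 6 and 9), and 2 were female and labelled XaXa, with both X chromosomes active (7 and 8). The labels give no strain, passage, line or culture; the p-values thus rest on the spread among libraries that may be technical replicates. The study set X chromosome dosage against methylation during reprogramming.

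Imprinted genes are expressed from 1 parental allele, and the choice is written in the germ line as methylation of a control region on the other allele. The nested genes of this kind are methylated on the maternal copy and expressed from the paternal one, and Mcts2, Nap1l5 and Zrsr1 arose as retrotransposed copies of genes on X. A control region with 1 methylated allele gives an intermediate level in bulk DNA, a level near 0 means that neither allele is methylated in most cells, and bulk reads without allele information cannot tell a change in every cell from a change in some cells. Mcts2 is related to a translation regulator, Nnat encodes a small membrane proteolipid of brain and endocrine cells, Nap1l5 belongs to the nucleosome assembly proteins, Zrsr1 is a relative of the splicing factor U2AF, and Inpp5f encodes an inositol phosphatase.

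Some libraries stood apart from their labels or from their group. X depth relative to the male iPSC libraries was 1.33 and 1.49 in XaXa 7 and 8, 1.04 in XO 6, and 1.29, 1.20 and 1.36 in XO 3, 5 and 9. Of the XO libraries, XO 6 was nearest to a single X, so results on XO are also given with XO 6 alone. MEF 5, labelled male, had an X depth of 1.24 and the lowest share of Y reads of all libraries. At the promoter of the pluripotency gene Pou5f1, XO 3 had 60.0% methylated reads (30 reads) and XO 5 had 17.3% (81 reads), whereas the other iPSC libraries ranged from 0% to 10%. MEF 5 was at 52.4% (21 reads) there. Across autosomal CpGs the mean level was 61.9% ± 0.997 (SD, n = 2) in MEF, 54.6% ± 2.46 (SD, n = 3) in male iPSC, 55.4% ± 3.71 (SD, n = 4) in XO. In XaXa it was 33.8% ± 3.95 (SD, n = 2), so XaXa DNA was low as a whole. Total CpG reads ranged from 4784488 in XO 9 to 143148634 in XaXa 8.

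Promoter sequence shows which CpGs of these genes the fragments reached. RefSeq promoters of the GRCm38.p6 build were placed on the CpGs of the libraries by their letters and spacing. Below are the 250 bases before the start of 2 nested genes, of a promoter of Commd1 that starts inside the Zrsr1 interval on the opposite strand, and of the host gene Blcap as a host promoter. CpGs read in at least 1 library are in capitals.
Mcts2: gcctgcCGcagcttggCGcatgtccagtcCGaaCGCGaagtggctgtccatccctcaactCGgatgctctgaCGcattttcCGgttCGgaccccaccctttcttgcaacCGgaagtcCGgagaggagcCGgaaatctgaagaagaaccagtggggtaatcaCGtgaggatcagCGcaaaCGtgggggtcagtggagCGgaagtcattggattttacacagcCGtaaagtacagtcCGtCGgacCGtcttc
Zrsr1: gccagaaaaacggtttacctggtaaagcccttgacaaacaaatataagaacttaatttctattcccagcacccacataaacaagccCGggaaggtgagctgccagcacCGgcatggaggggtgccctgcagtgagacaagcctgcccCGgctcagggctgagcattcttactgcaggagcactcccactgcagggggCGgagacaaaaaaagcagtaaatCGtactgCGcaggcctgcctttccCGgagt
Commd1 inner promoter: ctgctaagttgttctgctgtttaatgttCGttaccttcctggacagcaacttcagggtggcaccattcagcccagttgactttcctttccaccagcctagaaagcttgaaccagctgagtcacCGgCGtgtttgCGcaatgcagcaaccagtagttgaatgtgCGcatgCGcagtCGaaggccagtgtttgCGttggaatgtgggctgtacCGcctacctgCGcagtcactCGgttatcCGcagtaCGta
Blcap: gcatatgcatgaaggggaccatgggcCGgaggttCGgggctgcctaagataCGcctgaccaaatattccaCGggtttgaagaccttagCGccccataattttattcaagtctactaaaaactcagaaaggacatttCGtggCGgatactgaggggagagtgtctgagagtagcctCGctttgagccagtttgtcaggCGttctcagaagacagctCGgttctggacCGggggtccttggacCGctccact
In GRCm38.p6 these are chr2:152686898-152687147 on the plus strand for Mcts2, chr11:22971755-22972004 on the plus strand for Zrsr1, chr11:22972867-22973116 on the minus strand for Commd1 and chr2:157566362-157566611 on the minus strand for Blcap. With the 50 bases after the start, 25 of 25 CpGs were read for Mcts2, 9 of 10 for Zrsr1, 15 of 17 for the inner Commd1 promoter and 17 of 17 for Blcap. In mm9 the matched CpGs run from 152512640 to 152512913 for Mcts2, from 22871841 to 22872036 for Zrsr1, from 22872845 to 22873087 for Commd1 and from 157392052 to 157392320 for Blcap. The Nnat promoter had 6 of 17 CpGs read, and the Nap1l5 promoter had too few read CpGs to be placed. The hexamer TGCCGC, bound when methylated by ZFP57, a protein that protects imprints, was searched on both strands (GCGGCA on the other), and no other motif was searched. It occurs once in the Mcts2 window, where it is the first CpG printed above, once in that of Nnat, 2 times in that of Nap1l5 and 0 times in those of Zrsr1 and Blcap. The outer Commd1 promoter, where the host transcript begins, also holds it once. The windows of H13, of the long Inpp5f transcript and of the inner Commd1 promoter hold it 0 times. Of the 32851 RefSeq promoters, 11.6% hold it.

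**Figure D1:**
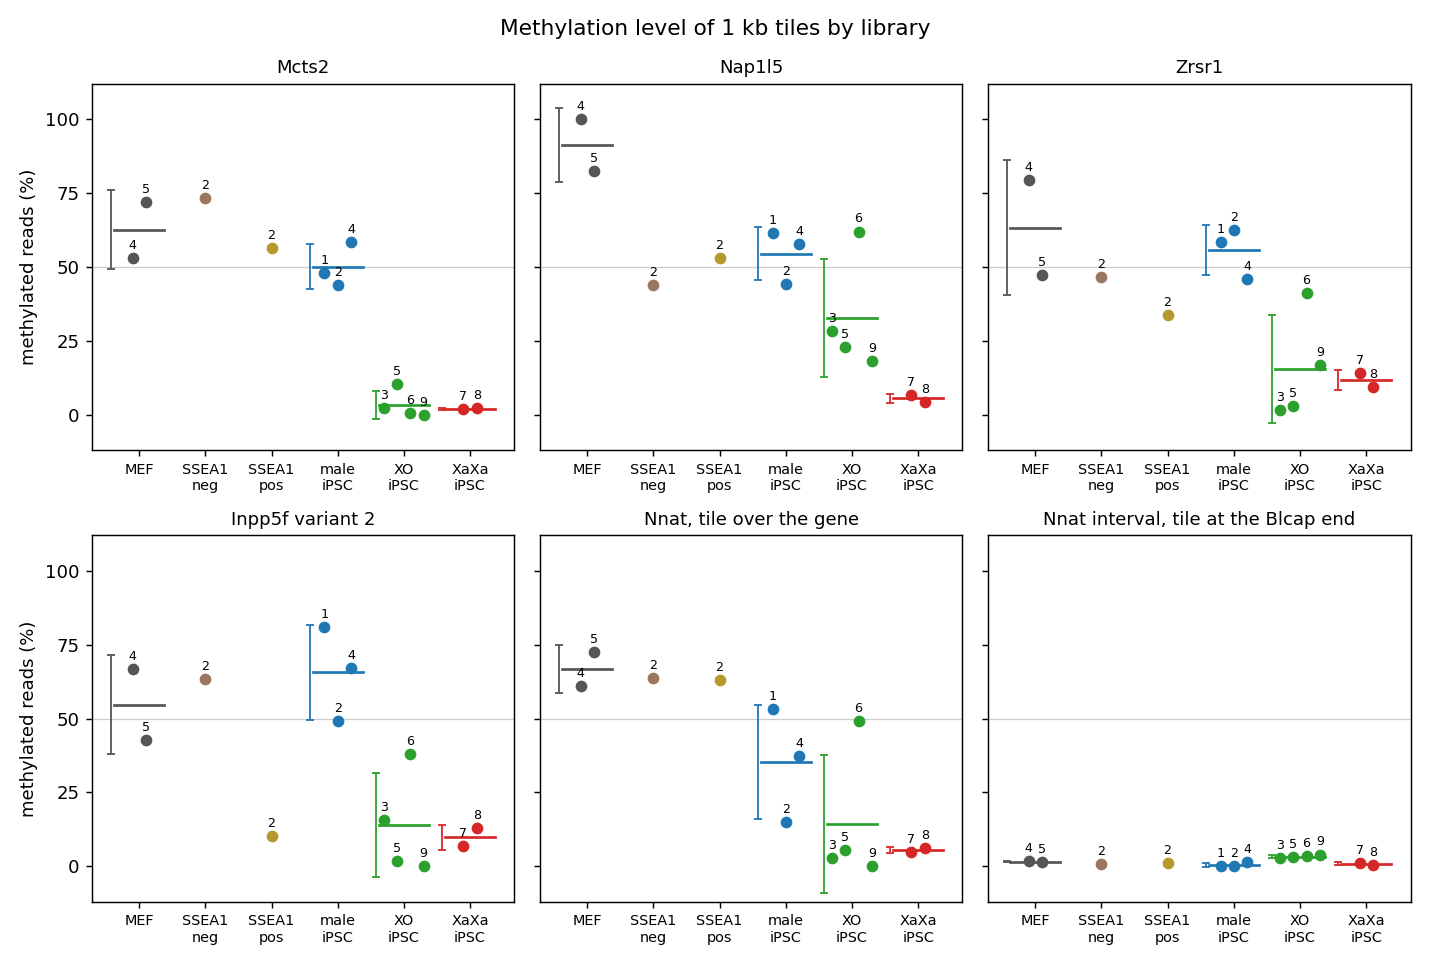
Methylation level (percent of reads methylated) of 1 tile per panel in each library, grouped on the horizontal axis. Points are libraries with their label number, horizontal lines are group means, and error bars beside them are ± 1 SD. Mcts2 was at or under 10.3% in all 6 female iPSC libraries, and XO 6 stood at 37.99% to 62.0% in the tiles of Nap1l5, Zrsr1, Inpp5f and Nnat over the gene.

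Mcts2 was the nested gene with the sharpest separation. Its promoter tile, chr2:152512001-152513000, was intermediate in all male libraries and close to unmethylated in all female iPSCs, XO 6 included. The level was 53.1% and 71.9% in MEF 4 and 5, and 47.8%, 44.0% and 58.4% in male iPSC 1, 2 and 4. It was 2.23%, 10.3%, 0.402% and 0% in XO 3, 5, 6 and 9, and 1.76% and 2.07% in XaXa 7 and 8. The groups of female and male iPSC did not overlap. The value of XO 6 came from 5 methylated of 1244 reads, whereas XO 9 had 26 reads, and its 0 allows a level of up to 11.5%. XO was lower than male iPSC by a difference of -46.8 points (adjusted p = 0.00317, quasi-binomial model). In the exact two-sided permutation test p was 0.0286, the smallest that 4 against 3 libraries allow. This call was not made by limma (adjusted p = 0.317) or with each library limited to 50 reads per tile (adjusted p = 0.102), both adjusted over all tiles. It was made whichever of the 11 libraries was left out. With XO 6 as the only XO library the difference was -49.7 points (adjusted p = 0.000119, quasi-binomial model, with the lone library assumed to vary like the other groups). XaXa was lower than male iPSC by a difference of -48.2 points (adjusted p = 1.34e-06, limma 0.00481, exact permutation p = 0.1, the smallest possible). Between XaXa and XO the difference was -1.32 points (adjusted p = 0.802), and it was 1.52 with XO 6 as the only XO library.

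Single CpGs of the Mcts2 tile were low in XO 6 and both XaXa libraries and less uniform in XO 5. In XO 6, 18 of the 18 CpGs with at least 10 reads were under 10%, with a highest value of 1.85%, and in XaXa 8 it was 18 of 18 with a highest value of 3.60%. In male iPSC 4, 21 of 22 such CpGs lay between 10% and 90%, from 28.9% to 90.9%. In XO 5, 10 of 18 such CpGs were under 10% and 8 lay at or above it, up to 36.4%. Male iPSC 2 had only 2 such CpGs, at 10% and 15%, so the male and XO ranges of single CpGs overlapped. Both strands were low in XO 6, at 0.563% of 711 plus-strand reads and 0.188% of 533 minus-strand reads. MEF 5 reached 10 reads in the promoter only at CpGs 244 to 215 bases before the start, upstream of those that did so in male iPSC 4, XO 6 and XaXa 8. In the tile, 98.5% of iPSC reads but 54.6% of MEF and SSEA1 reads fell at CpGs read in both kinds of library. Over those of the 25 promoter CpGs that each library read, the level was 58.9% ± 0.754 (SD, n = 2) in MEF, 46.1% ± 11.9 (SD, n = 3) in male iPSC, 1.62% ± 1.86 (SD, n = 4) in XO and, in XaXa, 2.11% ± 0.385 (SD, n = 2). MEF 4 and 5 read 13 and 18 of the 25, male iPSC 1, 2 and 4 read 11, 10 and 17, and XO and XaXa libraries read 10 or 11. These means thus rest on partly different CpGs. Of the 46 CpGs read in the tile, 5 were read in each of the 11 libraries tested, and over these the difference between XO and male iPSC was -35.8 points (adjusted p = 0.00129, quasi-binomial model). Mcts2 shares coding sequence with its source gene on X, and how the aligner placed reads that match both was not tested.

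**Figure D2:**
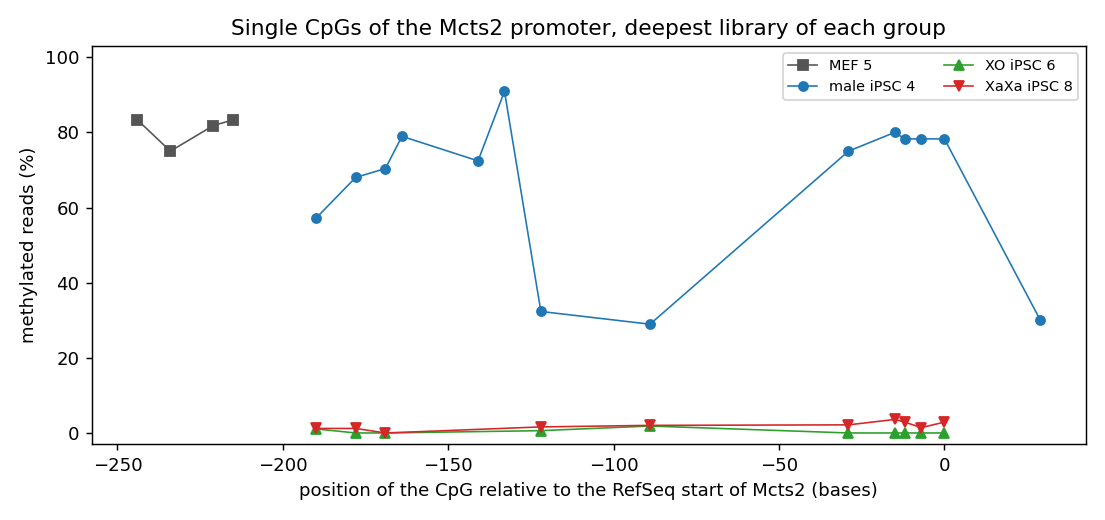
Level (percent of reads methylated) of single CpGs with at least 10 reads in the Mcts2 promoter, by distance in bases from the RefSeq start, for the deepest library of each group. XO 6 and XaXa 8 stayed under 4% at each CpG shown, male iPSC 4 lay between 28.9% and 90.9%, and MEF 5 covered only the upstream end.

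Zrsr1 and the inner Commd1 promoter share 1 CpG-rich stretch. The tile chr11:22872001-22873000 holds the start of Zrsr1 and part of the Commd1 promoter that faces it. Its level was 79.4% and 47.2% in MEF 4 and 5, and 58.5%, 62.4% and 46.0% in male iPSC 1, 2 and 4. It was 1.56%, 2.82%, 41.0% and 16.7% in XO 3, 5, 6 and 9, and 14.1% and 9.26% in XaXa 7 and 8. Male and female iPSC did not overlap, but XO 6, at 41.0% of 3259 reads, lay close to male iPSC 4. XO minus male iPSC was -40.1 points (adjusted p = 0.500; exact permutation p = 0.0571) and did not pass the test; without XO 6 it was -48.6 points (adjusted p = 0.00678). The XaXa level was lower than that of male iPSC by a difference of -43.9 points (adjusted p = 0.000292, limma 0.0310), a call that was lost without XaXa 8 (adjusted p = 0.176). The inner Commd1 promoter alone was at 44.2% ± 8.92 (SD, n = 2) in MEF, 63.4% ± 16.1 (SD, n = 3) in male iPSC, 17.7% ± 19.5 (SD, n = 4) in XO and, in XaXa, 11.8% ± 5.79 (SD, n = 2). The Zrsr1 promoter was at 52.7%, 27.1% and 53.5% in male iPSC 1, 2 and 4, at 0%, 7.48%, 38.2% and 23.8% in XO 3, 5, 6 and 9, and at 20.8% and 9.12% in XaXa 7 and 8. The outer Commd1 promoter, where the host transcript begins, was at or under 1.27% in each of the 10 libraries with 10 or more reads there.

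The 2 tiles that follow held like levels. The tile chr11:22873001-22874000 was intermediate in both MEF libraries, at 34.3% and 55.7%, and at 42.7%, 57.8% and 33.9% in the male iPSCs. It was at 11.05%, 12.8%, 37.2% and 25.4% in XO 3, 5, 6 and 9 and at 14.2% and 9.96% in XaXa 7 and 8. In the tile chr11:22874001-22875000, XO 6 was at 45.8%, within the male iPSC range of 33.9% to 52.6%, while XO 3, 5 and 9 were at 7.60%, 9.68% and 5.56%. XaXa was lower than male iPSC in both tiles, by differences of -32.7 and -37.1 points (adjusted p = 0.000472 and 0.00143), but in neither without XaXa 8 (adjusted p = 0.0918 and 0.166). Depth over chromosome 11 relative to the other libraries was 1.16 in XO 6 and 0.957 to 1 elsewhere; its part in the level of XO 6 was not tested.

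The tile of Inpp5f variant 2, chr7:135831001-135832000, had the lowest difference of any nested tile between female and male iPSC. It stood at 66.7% and 42.9% in MEF 4 and 5, and at 81.0%, 49.1% and 67.0% in male iPSC 1, 2 and 4. It stood at 15.8%, 1.89%, 37.99% and 0% in XO 3, 5, 6 and 9, and at 6.90% and 12.9% in XaXa 7 and 8. All female iPSC values were below all male ones, with XO 6 the nearest; the 0 of XO 9 rests on 17 reads and allows up to 17.6%. XaXa was lower than male iPSC by a difference of -55.8 points (adjusted p = 5.07e-05, limma 0.00872), a call lost without XaXa 8 (adjusted p = 0.0903). XO minus male iPSC was -51.7 points and did not pass the test (adjusted p = 0.0806; exact permutation p = 0.0571), but did without XO 6 (-59.8 points, adjusted p = 0.00953) and without XO 5 (-47.7 points, adjusted p = 0.0451). Only 0.00311% of all tested tiles had a lower difference in that comparison. The SSEA1 positive library was at 10.3% of 145 reads (95% Wilson interval 6.37% to 16.4%) and the SSEA1 negative one at 63.5% of 208 reads (56.7% to 69.7%); with 1 library each they were not compared by a test.

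Nap1l5 was highly methylated in the fibroblasts. Its tile, chr6:58856001-58857000, was methylated in 100% of 33 reads in MEF 4 and 82.4% of 102 reads in MEF 5, above the intermediate range. Male iPSC 1, 2 and 4 were at 61.4%, 44.2% and 57.8%, while SSEA1 negative cells were at 43.9% and SSEA1 positive cells at 53.1%. XO 3, 5, 6 and 9 were at 28.2%, 22.7%, 62.0% and 18.0%, with XO 6 above all male iPSCs, and XaXa 7 and 8 were at 6.57% and 4.35%. XaXa was lower than XO by a difference of -27.3 points (adjusted p = 6.17e-06, limma 0.0103; 0.0577 without XaXa 8) and lower than male iPSC by -49.0 points (adjusted p = 1.32e-05, limma 0.00496). XO minus male iPSC was -21.8 points (adjusted p = 0.859), and -31.5 points without XO 6 (adjusted p = 0.00953). Male iPSC minus MEF was -36.7 points, and male iPSC lay below MEF with no overlap, as in 37.3% of all tested tiles. It was past the threshold with limma (adjusted p = 0.0105), which called 20.4% of all tested tiles lower. In the quasi-binomial model it was not (adjusted p = 0.251). With XO 6 left out of that shared fit the adjusted p was 0.00611, and 20.4% of all tested tiles were called lower. In MEF 5 the 14 plus-strand reads were at 21.4% and the 88 minus-strand reads at 92.0%. Of the 18 CpGs of the tile, 12 were read in an iPSC library, 17 in a MEF or SSEA1 library and 4 in each of the 11 libraries tested; the part of this in the fibroblast level was not tested.

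Nnat could be followed along its host. The best covered tile of the interval, chr2:157391001-157392000, ends next to the Blcap promoter and was at 0% to 4% in all 13 libraries. The tile downstream of the Nnat start, chr2:157386001-157387000, was at 61.1% and 72.6% in MEF 4 and 5 and at 53.3%, 14.95% and 37.2% in male iPSC 1, 2 and 4. It was at 2.76%, 5.65%, 49.2% and 0% in XO 3, 5, 6 and 9 and at 4.68% and 6.22% in XaXa 7 and 8. XO 6 lay among the male values here, and male iPSC 2 was the lowest male library. Against male iPSC, XaXa was lower by a difference of -29.7 points (adjusted p = 0.00155, limma 0.0353), but not past the threshold without XaXa 8 (adjusted p = 0.101). XO minus male iPSC was -20.8 points (adjusted p = 0.938), and -32.4 points without XO 6 (adjusted p = 0.0131). In the next tile, chr2:157387001-157388000, the male iPSCs were at 80.0%, 56.7% and 32.2%, the XO libraries at 14.0%, 8.59%, 59.0% and 3.85% and XaXa at 11.9% and 7.68%. XaXa was lower there than male iPSC by -46.5 points (adjusted p = 0.00853, quasi-binomial model). It was lower than XO by -11.5 points (adjusted p = 0.00128), but not with limma (adjusted p = 0.426) or without XO 6 (0.987 points, adjusted p = 0.780). Without XaXa 8 neither passed the threshold (adjusted p = 0.317 and 0.294).

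Upstream of Nnat the interval held tiles of another kind. The tiles chr2:157380001-157381000 and chr2:157383001-157384000 were at 72.4% to 83.9% in MEF and at 66.7% to 83.9% in male iPSC. XO 3, 5, 6 and 9 were at 63.0%, 80.8%, 73.3% and 54.5% in the first and at 66.7%, 69.7%, 87.6% and 39.1% in the second; XO 9 had only 11 and 23 reads there. XaXa 7 and 8 were at 50.5% and 39.6% in the first and at 39.7% and 35.1% in the second. XaXa was lower than XO in both, by -22.9 and -28.3 points (adjusted p = 6.13e-05 and 1.12e-05; 0.0271 and 0.0124 without XaXa 8), close to the median of all tested tiles of -24.4 points. The tile with the Nnat start, chr2:157385001-157386000, lay between these and the gene: 81.1% and 25.5% in MEF, 87.7%, 57.1% and 63.2% in male iPSC, 0%, 12.8%, 69.5% and 16.7% (12 reads) in XO 3, 5, 6 and 9, and 28.1% and 10.7% in XaXa.

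**Figure D3:**
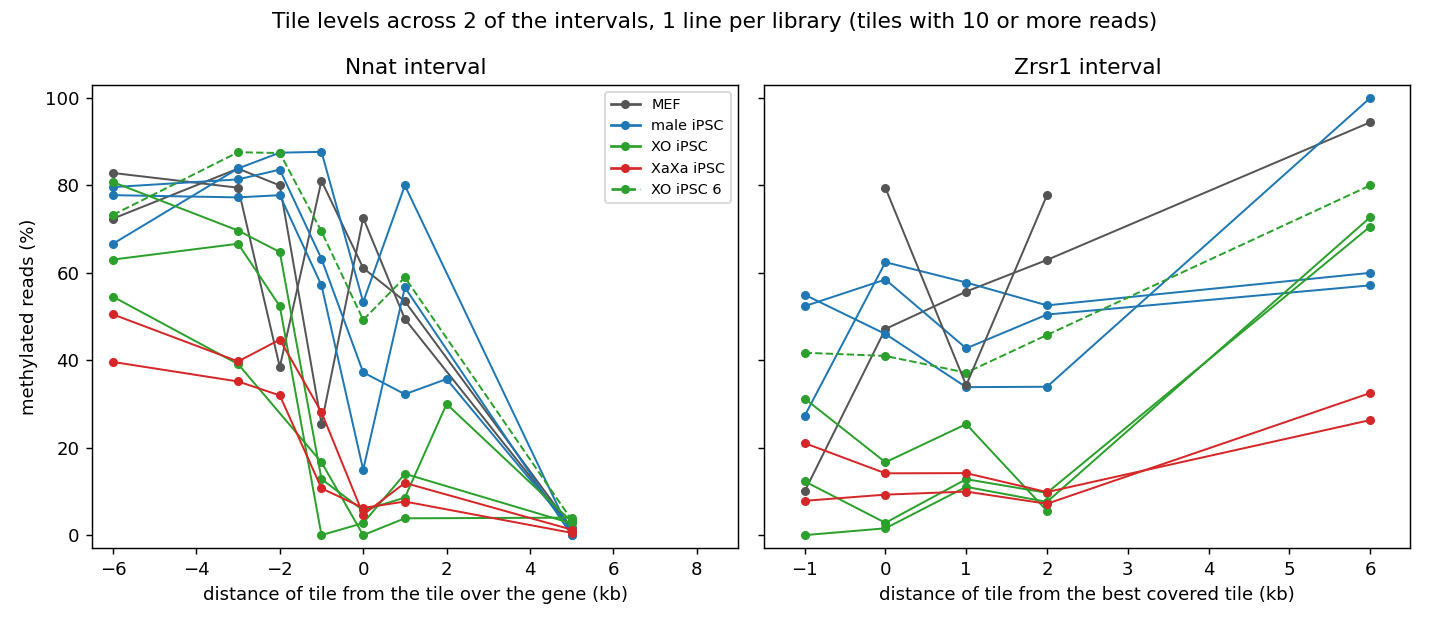
Level (percent of reads methylated) of each 1 kb tile with at least 10 reads across the Nnat and Zrsr1 intervals, by distance in kb from the tile downstream of the Nnat start (left) and the best covered tile of Zrsr1 (right), 1 line per MEF or iPSC library. The dashed line is XO 6, which ran with the male libraries over Nnat and Zrsr1. All libraries met near 0 at the Blcap end of the Nnat interval.

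Apart from the inner Commd1 promoter, the promoters of the host genes were at or near 0 in most libraries where they could be read. The inner Commd1 promoter, which lies in the Zrsr1 interval, had means of 44.2% in MEF, 63.4% in male iPSC, 17.7% in XO and 11.8% in XaXa. Blcap was at 0% to 1.46% in the 13 libraries, with 30 to 1318 reads. H13 was at 0% to 9.09% in the 10 libraries with 10 or more reads, the highest from 11 reads. The Inpp5f promoter of the long transcript had few reads. It was at 0% to 1.46% in 7 libraries with 10 or more reads and at 28.1% of 64 reads in XO 6. The Blcap, H13 and outer Commd1 promoters were thus low in male and female cells, unlike the nested genes, which were mostly intermediate in male iPSCs. The Herc3 promoter, with 0 copies of TGCCGC, had too few read CpGs to be placed, and that of Inpp5f variant 2 was not analysed here.

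Between XO and male iPSC the 12 tested tiles of the 5 genes lay mostly below 0, where the tiles of the whole genome centred near 0. A call needed both an adjusted p below 0.05 and group means at least 10 points apart. By this rule 1 of 12 was lower in XO and 0 higher, against 0.0445% of all tested tiles lower and 0.335% higher. The median difference of the 12 tiles was -25.8 points, and 11 of 12 were negative, whereas the median over all tested tiles was 0.17 points. Of the 12 tiles 6 were of Nnat and 3 of Zrsr1. Counts of the 12, here and below, thus rest on 5 genes and are not counts of independent units. In 3 of the 12, the tiles of Mcts2, Inpp5f and Zrsr1, all XO values lay below all male iPSC values, as they did in 2.52% of all tested tiles. In 1 of the 12, the Blcap end of the Nnat interval, all XO values lay above all male ones, as in 4.01% of all tested tiles. Leaving out XO 6 gave 6 of 12 lower, against 0.0487% of all tiles. These included the tiles of Mcts2, Nap1l5, Zrsr1 and Inpp5f and the Nnat tile downstream of the start, with adjusted p from 0.00678 to 0.0131 for the last 4 of these. With XO 6 as the only XO library 2 of 12 were lower, Mcts2 and Inpp5f, against 0.136%, and the difference was 7.46 points at Nap1l5 and 14.1 points at the Nnat tile. limma and the fit limited to 50 reads each called 0 of 12 lower, and 0.0% of all tiles, in this comparison. Without adjustment and in either direction, 9 and 8 of the 12 had p under 0.05, as did 5.46% and 6.71% of all tested tiles. In the quasi-binomial model it was 3 of the 12, against 11.3% of all tested tiles. The tile at the Blcap end, higher in XO by 2.87 points, was among the 9 of limma and these 3.

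Against male iPSC, XaXa was lower in 11 of 12 tiles, where 69.2% of all tested tiles were lower and 76.4% of those intermediate in MEF. The median difference was -43.7 points, against -24.2 over all tested tiles. limma called 10 (53.4% of all tiles) and the fit limited to 50 reads 11 (63.4%), while leaving out XaXa 8, the deepest library, left 4 (41.7% of all tiles): Mcts2, Nap1l5 and the 2 tiles upstream of Nnat. Between XaXa and XO, 4 of 12 tiles were lower, where 73.8% of all tiles were: Nap1l5 and 3 of Nnat. Leaving out XaXa 8 left 1 XaXa library, and the differences of these 4 tiles stayed negative. They were -26.2 points at Nap1l5, -17.4 and -26.0 points in the 2 tiles upstream of Nnat and -9.42 points in the other Nnat tile. With all libraries the median difference between XaXa and XO was -8.81 points, against -24.4 over all tiles. Several nested tiles were already low in XO, with means of 3.24% at Mcts2, 13.9% at Inpp5f and 14.4% in the Nnat tile downstream of the start. A difference of -24.4 points was not possible there. XO means were 32.7% at Nap1l5 and 67.9% and 65.8% in the 2 tiles upstream of Nnat. Over the tiles with 10 reads in all 13 libraries the XO median was 68.2%. With XO 6 as the only XO library, 10 of 12 were lower, against 75.7%. The comparisons share libraries, so their counts are not independent of each other. From MEF to male iPSC, 0 of 12 tiles were called, where 18.6% of all tiles were lower and 5.59% higher. At an unadjusted p under 0.05 there were 0 in the quasi-binomial model and 1 with limma, that of Nap1l5, where 37.3% and 38.6% of all tested tiles had such a p. The median difference was -2.04 points.

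**Figure D4:**
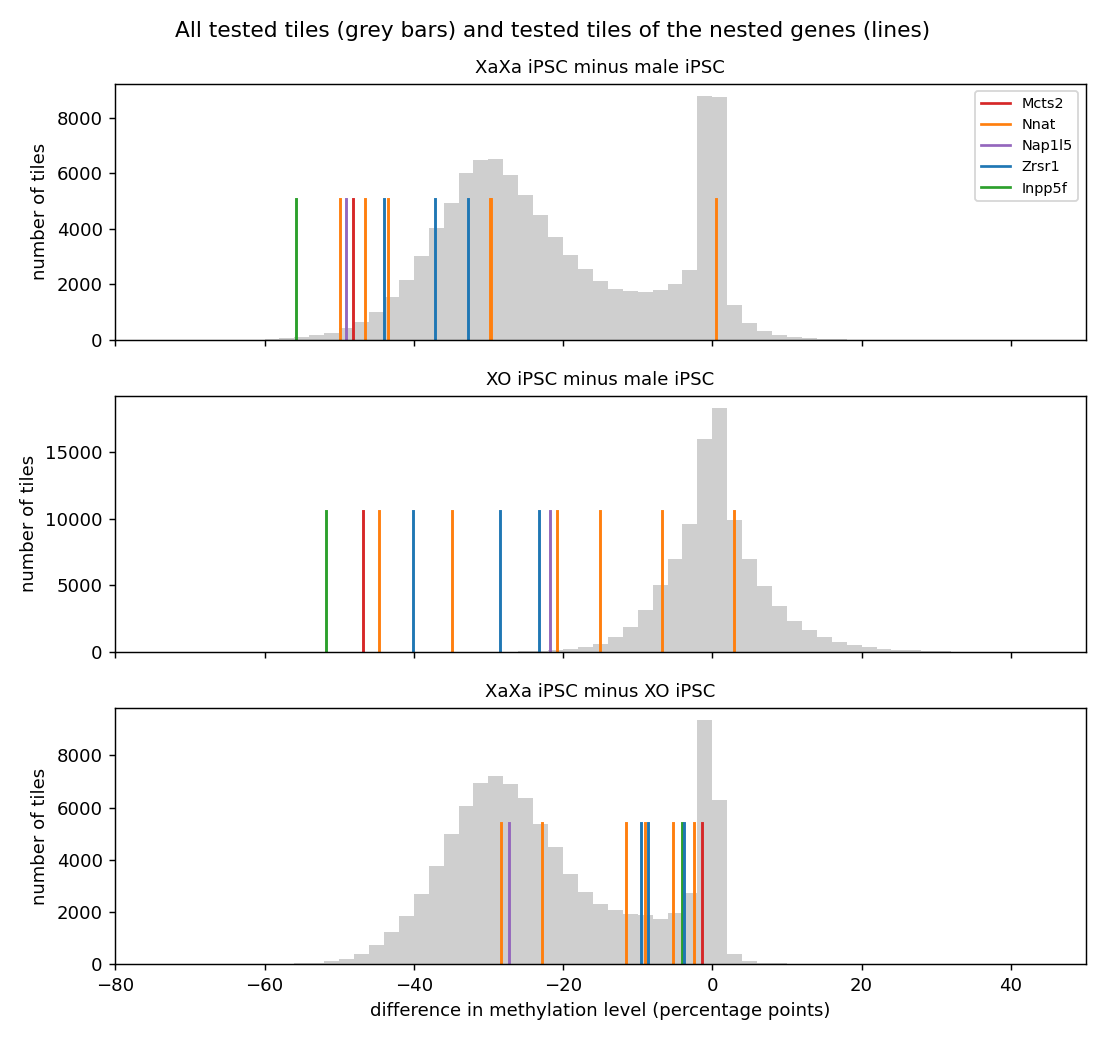
Number of tested tiles of the genome by difference in methylation level between groups (percentage points, grey bars) for 3 comparisons, with the 12 tested tiles of the nested genes as coloured lines. In XO minus male iPSC, 11 of the 12 lines lie left of 0 while the grey bars centre near 0. In XaXa minus XO most lines lie right of the main body of the bars.

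Tiles between 25% and 75% in both MEF libraries gave a like starting point. Of the nested genes, 5 tiles met this, 2 of Nnat and 1 each of Mcts2, Zrsr1 and Inpp5f. The median over these 5 was 63.5% in SSEA1 negative cells, 63.0% in SSEA1 positive cells, 46.5% ± 8.34 (SD, n = 3) in male iPSC, 14.4% ± 16.4 (SD, n = 4) in XO and, in XaXa, 7.29% ± 0.556 (SD, n = 2). Over the 16526 such tiles of the genome the median was 65.7% in male iPSC, 65.7% in XO and 36.2% in XaXa. Windows of 14 other imprinted regions held 15 tested tiles, 8 of them in that range. Their median was 54.8% ± 3.92 (SD, n = 3) in male iPSC, 28.3% ± 20.4 (SD, n = 4) in XO and, in XaXa, 16.6% ± 0.284 (SD, n = 2). Of these 15 tiles 0 were called lower in XO than in male iPSC, as were 0.0445% of all tested tiles. The difference was negative in 13 of the 15, with a median of -20.9 points. The nested genes were not set apart from the other imprinted regions by a test.

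In the SSEA1 libraries the nested genes were mostly intermediate, but parts of Nnat were higher. The Nnat tile chr2:157387001-157388000 was at 41.3% in SSEA1 negative cells and at 91.3% of 23 reads in SSEA1 positive cells. The tile with the Nnat start was at 91.4% and 57.1%, in the same order. Mcts2 was at 73.4% in SSEA1 negative cells (95% Wilson interval 62.8% to 81.9%) and at 56.4% in SSEA1 positive cells (49.1% to 63.4%). The SSEA1 negative level averages 0% of 15 plus-strand reads and 90.6% of 64 minus-strand reads, with at most 6 reads at any CpG. It thus rests on few molecules and on parts of the tile that differ. Zrsr1 was at 46.5% (41.8% to 51.2%) and 33.8% (28.7% to 39.2%), and the Nnat tile downstream of the start at 63.9% (54.5% to 72.3%) and 63.0% (54.3% to 70.9%). Among the tiles given here in full, only Inpp5f variant 2 in SSEA1 positive cells was below 25%, beside the Blcap end of the Nnat interval.

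The places of the genome whose 13 levels were most like the mean of the best covered tiles of the 5 genes were found by mean absolute difference over the 13 libraries, among 91767 tiles. The nearest were chr12:70223001-70224000, at 6.96 points, chrX:67732001-67733000, at 7.49, chr5:31247001-31248000, at 7.59, chr5:150573001-150574000, at 8.08, and chr7:71199001-71200000, at 8.51. The first had group means of 67.2% in MEF, 41.2% in male iPSC, 17.3% in XO and 7.60% in XaXa. With Nnat taken by its tile downstream of the start in place of the Blcap end, 2 of these 5 places were again among the nearest 5, the first and the fourth. None of the 5 lay in the windows of the other imprinted regions, and no genes are named for them because no annotation of mm9 was used here.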

How the data were processed

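RRBS was read in 13 libraries. Per the file headers, the deposited tables hold, per CpG, total and methylated read counts, also split by strand; the values are whole numbers and the deposited counts carry no normalisation. The deposited fraction, the ratio of those counts per the file headers, was not used. Per the submitters' processing notes, the aligner was BSMAP and the build mm9; its version and any trimming or filter are not stated there. RRBS reads share cut sites, so PCR copies look alike, and reads over several CpGs enter a tile at each of them. Wilson intervals (95%) and limits for a count of 0 (3 reads of the total) therefore cover counting error only and are too narrow.

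Reads were summed in 1 kb tiles; 96551 tiles with at least 3 CpGs read, and 10 reads in each of the 11 libraries of the 4 groups with replicates, were tested. Group levels were fitted per tile by a quasi-binomial model, its dispersion moderated with limma's squeezeVar and kept at 1 or above, with an F test adjusted by Benjamini-Hochberg over all tiles. Group means weigh libraries equally. The model lets deep libraries weigh most, so limma on log2((methylated + 1)/(unmethylated + 1)) and a fit limited to 50 reads per tile and library stand beside it. The latter, and the use of a second Nnat tile, were chosen after seeing the data. Exact two-sided permutation tests (48, unadjusted) ran per tile and comparison; the smallest p the splits allow is 0.0667 (XaXa and XO), 0.1 (XaXa and male iPSC, male iPSC and MEF) and 0.0286 (XO and male iPSC).

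The members and lists were chosen with earlier results of these data known. Named were all 5 genes, by their tile with the largest lowest read count, other tested tiles that were called or lay elsewhere in the MEF range, and the 5 most similar tiles (10 reads in all 13 libraries, at most 1 per 10 kb, outside the intervals). The windows of the 14 other imprinted regions were placed from general knowledge; 9 held a tested tile. All 11 symbols looked up had a RefSeq promoter (GRCm38.p6); a promoter was placed where at least 4 read CpGs matched its spacing and the 5 letters around each. X depth was set against the autosomes and the male iPSC libraries. Tools were limma 3.58.1 under R 4.3.3, and Python 3.11.15 with statsmodels 0.14.6, scipy 1.17.1, pandas 2.3.3, numpy 2.4.6 and matplotlib 3.10.9.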

Additional observations from a re-analysis of the deposited data

Results flagged for a closer look

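Among the 12 tested tiles, the 4 XO libraries were checked for a library far from the others of its group by Dixon's test; by chance about 1 in 20 groups would be picked. In the Nnat tile downstream of the start, XO 6 was at 49.2%, while the other XO libraries were at 0% to 5.65% (gap over range 0.885). In the Zrsr1 tile chr11:22874001-22875000, XO 6 was at 45.8%, while the others were at 5.56% to 9.68% (gap over range 0.898). XO 6 was the XO library with an X depth nearest to that of male iPSC.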

How the results depend on the processing

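Calls below are of 12 tested tiles unless stated, against 4 for XaXa minus XO, 11 for XaXa minus male iPSC, 1 for XO minus male iPSC and 0 for male iPSC minus MEF. Leaving out 1 library gave 2 to 8, 4 to 12 (of 13 tiles without MEF 4), 1 to 6 and 0 to 3 calls. XO minus male iPSC had 6 without XO 6 and 2 without XO 5, where 0.0487% and 0.057% of all tested tiles were called lower. Male iPSC minus MEF had 3 without XO 6, where 20.4% of all tested tiles were called lower, against 18.6% in the main fit. In XaXa minus XO the share of all tested tiles called lower was 73.8% in the main fit. It was 72.1% without XO 3, 72.9% without XO 5 and 76.9% without XO 3 and 9. XaXa minus XO had 8 without XO 3 and 7 without XO 5. Both XaXa comparisons had their fewest calls without XaXa 8, which leaves 1 XaXa library. The share of all tested tiles called lower fell there as well, so the drop was not particular to the nested genes. With XO 3 and 9 left out XaXa minus XO had 10 calls. With XO 3, 5 and 9 left out, the mean of the best covered tiles was -23.0 points for XaXa minus XO (main -7.77) and -16.3 for XO minus male iPSC (main -31.5). limma and the limit of 50 reads each gave 0 for XO minus male iPSC and 1 for male iPSC minus MEF; fits on the 2 groups compared gave 2 for the latter. In male iPSC minus MEF these 3 fits called 20.4%, 22.9% and 19.3% of all tested tiles lower. At least 20 reads left 8 tiles and 7 calls for XaXa minus male iPSC, where 58.0% of all tiles of that depth were called lower. With whole intervals that share was 69.2%, and 73.8% for XaXa minus XO. Whole intervals (5) gave 2 calls for XaXa minus XO, 5 for XaXa minus male iPSC and a mean of -44.5 points; with Nnat taken by its tile downstream of the start (the second Nnat tile) it was -45.3 (main -39.3).

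For single tiles, 489 recomputed differences kept direction and call, 24 became calls, 6 lost theirs and 13 changed sign. The cause was not tested. The 489 include settings that left out a library of neither group compared, or that changed only the model or the threshold. In those the difference could not change, so the 489 do not measure how stable the differences are. Mcts2 in XaXa minus XO ranged from -2.40 to 1.04 (without XO 5) and was 1.38 over CpGs read in each of the 11 libraries and 1.52 with XO 3, 5 and 9 left out. In the same comparison Zrsr1 ranged from -8.46 to 4.69, Inpp5f from -8.67 to 3.99 and the second Nnat tile from -13.8 to 2.65, the highest values without XO 6. With XO 3, 5 and 9 left out, XO minus male iPSC was 7.46 at Nap1l5 and 14.1 at the second Nnat tile. Over the whole Nnat interval, unlike its best covered tile, the differences were -30.6 (XaXa minus male iPSC), -16.2 (XO minus male iPSC) and 0.407 (male iPSC minus MEF). Male iPSC minus MEF ranged from -23.8 to 8.47 (without MEF 4) at Zrsr1 and from -1.004 (without MEF 5) to 22.8 at Inpp5f. Depth limits XO 9 most, with 11 to 78 reads in the 12 tested tiles. MEF and iPSC libraries covered partly different CpGs: of 324 CpGs in the tested tiles, 156 were read in both kinds and 66 in each of the 11 libraries. No paired analysis was possible because the groups compared share fewer than 2 replicate numbers.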
